A study of Homo sapiens with 50 samples.

Results

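Transcript levels of 10 genes of the BCL2 family were measured in H1299 cells, a human non-small cell lung carcinoma line, and in H1299shRAD9 cells, which stably carry a short hairpin RNA against RAD9 delivered by a retroviral vector. The genes were BCL2, BCL2L1, MCL1, BAX, BAK1, BBC3, PMAIP1, BCL2L11, BID and BAD, and the members were all probes that carry one of these names on the array. There were 16 such probes, of 34127 that are not controls. Cells of each line grew on nested Mylar dishes, and those on the outer dish received 1 Gy of α particles directly while those on the inner dish were bystanders that shared the medium. RNA was taken 4 h later. In each line, CTL cells were sham irradiated. BP (bystander positive) and BN (bystander negative) cells were bystanders from dishes with a raised or a background share of cells with micronuclei. DBP and DBN cells were the directly irradiated partners of those bystanders. Each of the 10 combinations of cell line and exposure had 5 biological replicates, which gave 50 one-colour arrays. The dishes of each group were chosen by their micronucleus score, and the study used a pair of stable RAD9 transfectants interchangeably, without labels that say which one gave each replicate. The parental line was untransfected, so the vector and its selection differ between the lines together with RAD9.

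Proteins of the BCL2 family decide whether the outer mitochondrial membrane is opened during apoptosis. BCL2, BCL2L1 (BCL-xL) and MCL1 keep it closed, BAX and BAK1 form the pores, and the BH3-only proteins BBC3 (PUMA), PMAIP1 (NOXA), BCL2L11 (BIM), BID and BAD either neutralise the protective members or activate the pore formers. BBC3 and PMAIP1 are known to be induced by several stress pathways. RAD9, besides its part in the checkpoint clamp, has a BH3-like stretch through which it can bind BCL2 and BCL-xL.

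BCL2, BAX, BCL2L11, BID and BAD had more than one probe, and those probes did not always give the same values, so their sequences and positions (hg19) are shown where the results depend on which transcript was read. For each 60-base probe shown the first 30 bases are given 5′ to 3′, all in lower case because no part is singled out. The BCL2 probes are annotated to different transcript variants, beta (A_33_P3355185) and alpha. Variant names here and below are those of the annotated transcripts, and whether a probe also reads other variants was not tested. The alpha probe lies on the minus strand at chr18:60790723-60790782:
BCL2 A_23_P352266 (alpha): tggctgatattctgcaacactgtacacata

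The BAX probes lie on the plus strand at chr19:49464904-49464963 (variant sigma) and chr19:49464454-49464513 (variant beta):
BAX A_23_P208706 (sigma): tgccttggactgtgtttttcctccataaat
BAX A_33_P3341144 (beta): ctgcctctggaattgctcaagttcattgat

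The BID probes are neighbours on the minus strand, at chr22:18218182-18218241 and chr22:18218265-18218324, whereas the BAD probes, also on the minus strand, are at chr11:64037483-64037542 and chr11:64044428-64044487, the second within a separate Ensembl transcript:
BID A_24_P187948: gaagacaggctggaagatagctgtgacttc
BID A_33_P3227041: actggctaaagctcgatgtggtcacagctg
BAD A_33_P3262043: ttcccttccggtgcgtgtgaagccacggaa
BAD A_33_P3402076: atctgaggactctgaaaatcccagtgcagg

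The BCL2L11 probes read the plus strand at chr2:111886352-111886411, chr2:111925892-111925951 and chr2:111878705-111878764:
BCL2L11 A_33_P3251932: ctctctccctcttccttgagcattttgtca
BCL2L11 A_24_P122921: acttgtgttttgcactgatgaattttgaca
BCL2L11 A_33_P3398526: cctttcttggcccttgttcccccaaatgtc

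A level is given below as log2 intensity relative to the median of the array, so 1 unit is a doubling. Levels can be compared between arrays for 1 probe, but not between probes. All 16 probes were among the 20078 features that were well above background on enough arrays to be tested. The share of features well above background was 55.1 to 73.0% in H1299shRAD9 and 59.7 to 83.2% in H1299, where the highest value belonged to DBN replicate 1. The RAD9 transcript (RAD9A) was lower in H1299shRAD9 CTL than in H1299 CTL, 3.65 ± 0.19 against 4.01 ± 0.13 (SD, n = 5), which is 77.9% of the parental level and was not called (limma adjusted p = 0.0561). Over all exposure groups it was 88.5% of the parental level (adjusted p = 0.279). These values are of RNA, whereas the paper reports by Western blot that RAD9 protein was reduced in its transfectants. KRT8, KRT18 and VIM were above background on 50 of 50 arrays, and so were the leukocyte marker PTPRC and the endothelial marker CDH5, whereas CDH1 was above background on 0, EPCAM on 5 and PECAM1 on 2. In bulk RNA, fewer cells with a transcript and less of it per cell cannot be told apart.

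In unirradiated cells, a probe for BID and the probe for BAX variant beta were higher in H1299shRAD9 than in H1299, and 1 of the BAD probes was lower. These 3 of 16 probes were called (p below 0.005 and FDR below 10% in limma), beside 13% of all features tested in this comparison (6.9% higher and 6.07% lower). The protective members BCL2, BCL2L1 and MCL1, and the pore former BAK1, were not called.

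BID encodes the BH3-only protein that links death receptors to mitochondria when it is cleaved. Its level on A_24_P187948 was 6.55, 6.58, 6.39, 6.38 and 6.49 in replicates 1 to 5 of H1299shRAD9 CTL, and 6.11, 6.13, 5.96, 6.12 and 6.20 in H1299 CTL. Every H1299shRAD9 array was above every H1299 array. The log2 difference was 0.37 (SE 0.094, 95% CI 0.17 to 0.58, limma adjusted p = 0.0233). The neighbouring probe A_33_P3227041 gave 0.16 (95% CI -0.05 to 0.36, adjusted p = 0.253) and its groups overlapped, although across the 50 arrays the BID probes had r = 0.89.

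BAX forms pores in the mitochondrial membrane. On the variant beta probe the H1299shRAD9 CTL levels were 1.17, 1.06, 1.27, 1.22 and 1.44, and the H1299 CTL levels were 0.45, 0.58, 0.39, 1.02 and 0.92. The groups did not overlap, and the difference was 0.56 (95% CI 0.25 to 0.87, limma adjusted p = 0.0248). The variant sigma probe, which was much brighter, differed by 0.03 (95% CI -0.26 to 0.33). The higher signal in H1299shRAD9 was thus measured at 1 of 2 BAX positions.

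BAD is a BH3-only protein held in check by phosphorylation. On A_33_P3402076 its levels were -1.02, -0.94, -2.40, -1.44 and -2.44 in H1299shRAD9 CTL and -1.13, -0.26, -0.43, -0.23 and -0.42 in H1299 CTL. This is a dim probe, above background on 2 of 5 H1299shRAD9 CTL arrays and on 5 of 5 H1299 CTL arrays, and 1 H1299 array lay within the other line's range. The difference was -1.16 (95% CI -1.83 to -0.48, limma adjusted p = 0.0292). The bright BAD probe A_33_P3262043 differed by -0.39 (95% CI -0.73 to -0.04, limma adjusted p = 0.112) and was not called. These calls were not stable: without replicate 3, 0 of the 16 probes were called in unirradiated cells, without replicates 2, 4 or 5 in turn 1 was called, and without replicate 1 the 3 called were both BAD probes and BCL2L11 on A_33_P3398526. The BID call held under 4 of 15 alternatives, the BAX call under 9 of 15 and the BAD call under 8 of 14, with no change of sign.

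Other measures also differed between the unirradiated lines. Of 4 leukocyte markers looked for, 3 were on the array and 2 were tested, and PTPRC was higher in H1299shRAD9 CTL (1.20, limma adjusted p = 0.0159), while CD3E was above background on 38 of 50 arrays. Over 2413 transcripts with several probes, the median log2 difference between the most 5′ and the most 3′ probe, which falls as RNA is shortened, was -1.56 to -1.46 in H1299shRAD9 CTL and -1.43 to -1.23 in H1299 CTL. The part of these differences in the levels of BID, BAX and BAD was not tested.

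The remaining members were not called between the unirradiated lines. BBC3 was 3.46 ± 0.26 in H1299shRAD9 CTL and 4.23 ± 1.04 in H1299 CTL (SD, n = 5; difference -0.77, 95% CI -1.64 to 0.11). PMAIP1 differed by -0.34 (95% CI -0.97 to 0.30), BCL2L1 by 0.24 (95% CI -0.06 to 0.55), MCL1 by 0.14 (95% CI -0.17 to 0.45) and BAK1 by 0.12 (95% CI -0.28 to 0.53). The BCL2 probes differed by 0.15 (95% CI -0.27 to 0.57) for beta and by -0.35 (95% CI -1.05 to 0.35) for alpha. The BCL2L11 probes differed by 0.49 (A_33_P3251932), -0.13 (A_24_P122921) and 0.50 (A_33_P3398526).

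**Figure D1:**
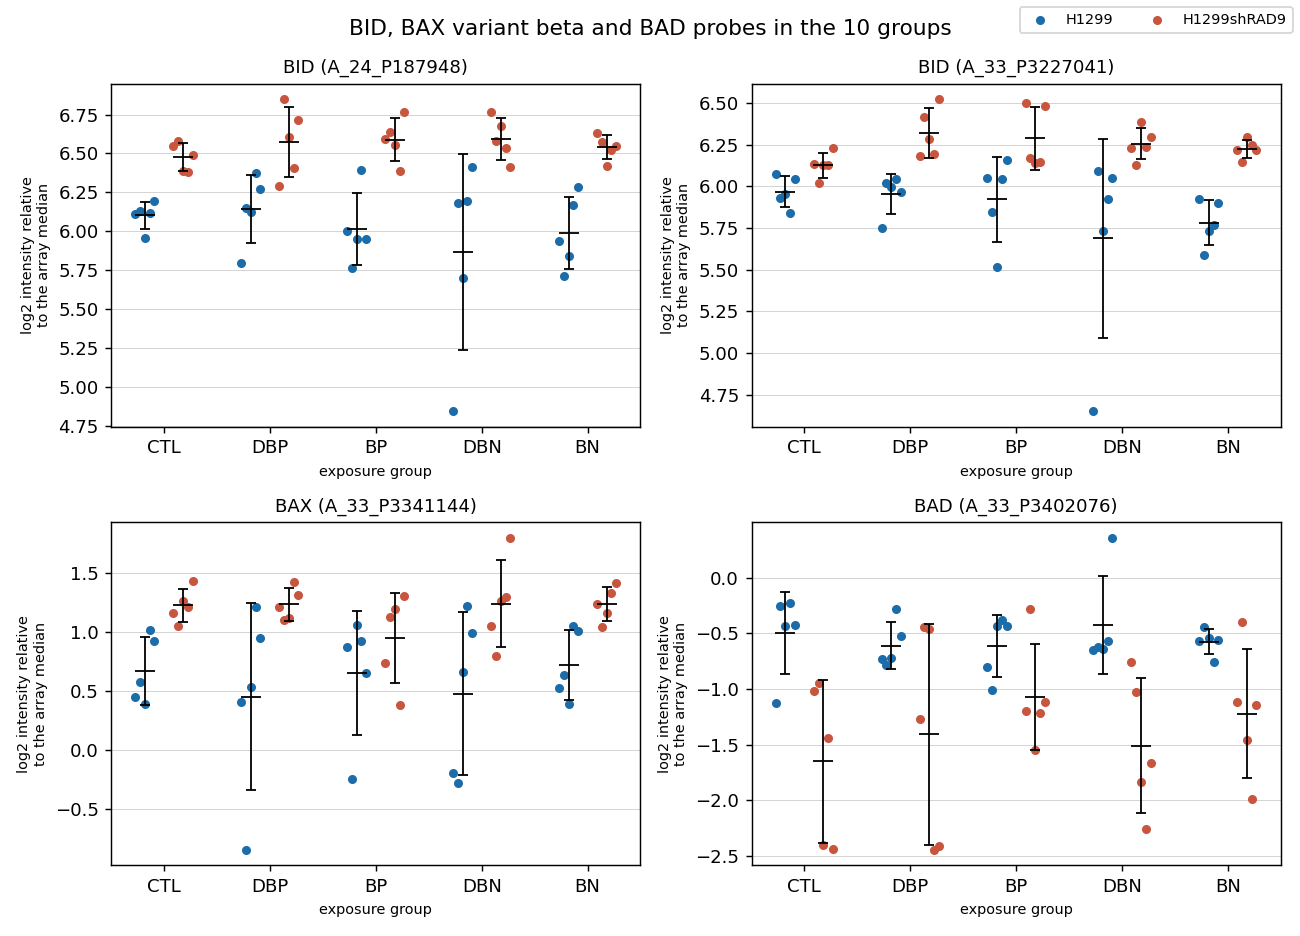
Levels of both BID probes, the BAX variant beta probe and the dim BAD probe in the 10 groups, as log2 intensity relative to the array median (y axis) by exposure group (x axis), with 1 point per array and the mean ± SD as bars (n = 5). H1299shRAD9 (red) was above H1299 (blue) for BID and BAX beta and below it for BAD, with overlap in most exposure groups for BAX and BAD; the lowest point of each BID probe, 4.84 and 4.65, is H1299 DBN replicate 1.

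The same comparison made over the 5 exposure groups together, with all 50 arrays, called both BID probes, the BAX variant beta probe and the dim BAD probe. These 4 of 16 stand beside 22.6% of all features (call at p below 0.006 and FDR below 10%). The median feature was itself 0.13 higher in H1299shRAD9, so differences relative to that shift are given as well. The CTL arrays enter both comparisons of the lines.

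Across 25 arrays per line, BID on A_24_P187948 ranged from 6.29 to 6.85 (median 6.55) in H1299shRAD9 and from 4.84 to 6.41 (median 6.12) in H1299. In H1299shRAD9, 20 of 25 arrays exceeded the highest H1299 array. The log2 difference was 0.53 (95% CI 0.31 to 0.75, limma adjusted p = 0.000265), or 0.41 relative to the median shift. By exposure, the BID difference was 0.37 (CTL), 0.43 (DBP), 0.57 (BP), 0.73 (DBN) and 0.55 (BN). BID on A_33_P3227041 differed by 0.38 (95% CI 0.16 to 0.59, limma adjusted p = 0.00663), or 0.25 relative to the shift, and 17 of 25 H1299shRAD9 arrays exceeded the highest H1299 array.

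BAX variant beta differed by 0.58 (95% CI 0.26 to 0.90, limma adjusted p = 0.0053), and by 0.46 relative to the shift. The lines overlapped more than for BID, with 11 of 25 H1299shRAD9 arrays above the highest H1299 array. The dim BAD probe differed by -0.83 (95% CI -1.23 to -0.42, limma adjusted p = 0.00176), and by -0.95 relative to the shift. Its value was -1.16 among CTL arrays, -0.80 among DBP, -0.46 among BP, -1.08 among DBN and -0.65 among BN arrays, all 5 negative. The fit treated arrays of the same line and replicate number as correlated at 0.273 for every feature. As given below, replicate number took 59.2% of the sum of squares of BAX variant beta in H1299. For the dim BAD probe in H1299shRAD9 it took 49.9%. The intervals and p-values of the BAX and BAD probes may therefore be too narrow.

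BBC3 missed the p threshold with a difference of -0.66 (limma adjusted p = 0.0376), and the bright BAD probe gave -0.26 (limma adjusted p = 0.116). Most slides held arrays of 1 line, so slide and cell line were largely confounded. On the only slides that held both lines, slides 6 and 13, BID on A_24_P187948 differed by 0.18 and 1.01, BAX variant beta by 0.86 and 0.41 and the dim BAD probe by -1.19 and -0.64. With slide as a fixed block 1 member probe was called, the dim BAD probe, and the BID difference was 0.58 with an adjusted p of 0.0819 (limma).

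The replicate number was linked to larger differences in some members than the exposure was. In a fit of replicate number and exposure group as 2 factors, made within each line after the data had been seen, 6 of 16 probes were called for the replicate number in H1299shRAD9, beside 31.7% of all features. In H1299 3 of 16 were called, beside 19.3% of all features. For exposure 0 of 16 were called in either line, beside 1.91% of all features in H1299shRAD9 and 0.239% in H1299, and at an unadjusted p below 0.05 there was 1 in H1299shRAD9 and 0 in H1299. The median share of the sum of squares that went with the replicate number was 33.5% for the member probes and 35.1% for all features in H1299shRAD9, and 35.3% and 31.1% in H1299, so the members as a group were close to the background.

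BCL2, the founding anti-apoptotic member, showed the pattern most sharply. In H1299shRAD9 the variant beta probe averaged -0.24 in replicate 1 and -0.13 in replicate 2 over the 5 exposure groups, and 0.63, 0.52 and 0.56 in replicates 3, 4 and 5. The 10 arrays of replicates 1 and 2 lay between -0.40 and 0.03, and the 15 arrays of replicates 3 to 5 between 0.44 and 0.76, with no overlap. The replicate number took 95.2% of the sum of squares and exposure 0.308% (limma F test, adjusted p = 5.7e-09 for replicate number).

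The variant alpha probe of BCL2 behaved likewise in H1299shRAD9. Its replicate means were -1.10, -0.86, 0.27, 0.47 and 0.93, and 91.9% of its sum of squares went with the replicate number (limma F test, adjusted p = 8.06e-10). In H1299 the same probe had replicate means of -0.06, 0.36, 0.05, 0.67 and 0.54 and was not called (limma adjusted p = 0.0369, with the unadjusted p above its threshold). The H1299 arrays of both BCL2 probes lay between the H1299shRAD9 extremes. Because the split in H1299shRAD9 ran through all 5 exposure groups, the mean of BCL2 beta over that line, 0.27, lay in the gap between its replicates.

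BAK1, the other pore former, also differed among the replicates of H1299shRAD9, with means of 5.21, 5.13, 5.69, 5.65 and 5.96 (87.7% of the sum of squares, limma adjusted p = 1.88e-06). The bright BAD probe went the other way, with 5.98, 5.77, 5.25, 5.14 and 5.41 (85.1%, limma adjusted p = 3.25e-06). The 10 arrays of replicates 1 and 2 did not overlap the 15 arrays of replicates 3 to 5 in either gene, with ranges of 4.84 to 5.34 and 5.53 to 6.06 for BAK1 and of 5.64 to 6.16 and 4.98 to 5.61 for BAD. The dim BAD probe (49.9%) and BBC3 (68.3%) were the other probes called in this line.

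**Figure D2:**
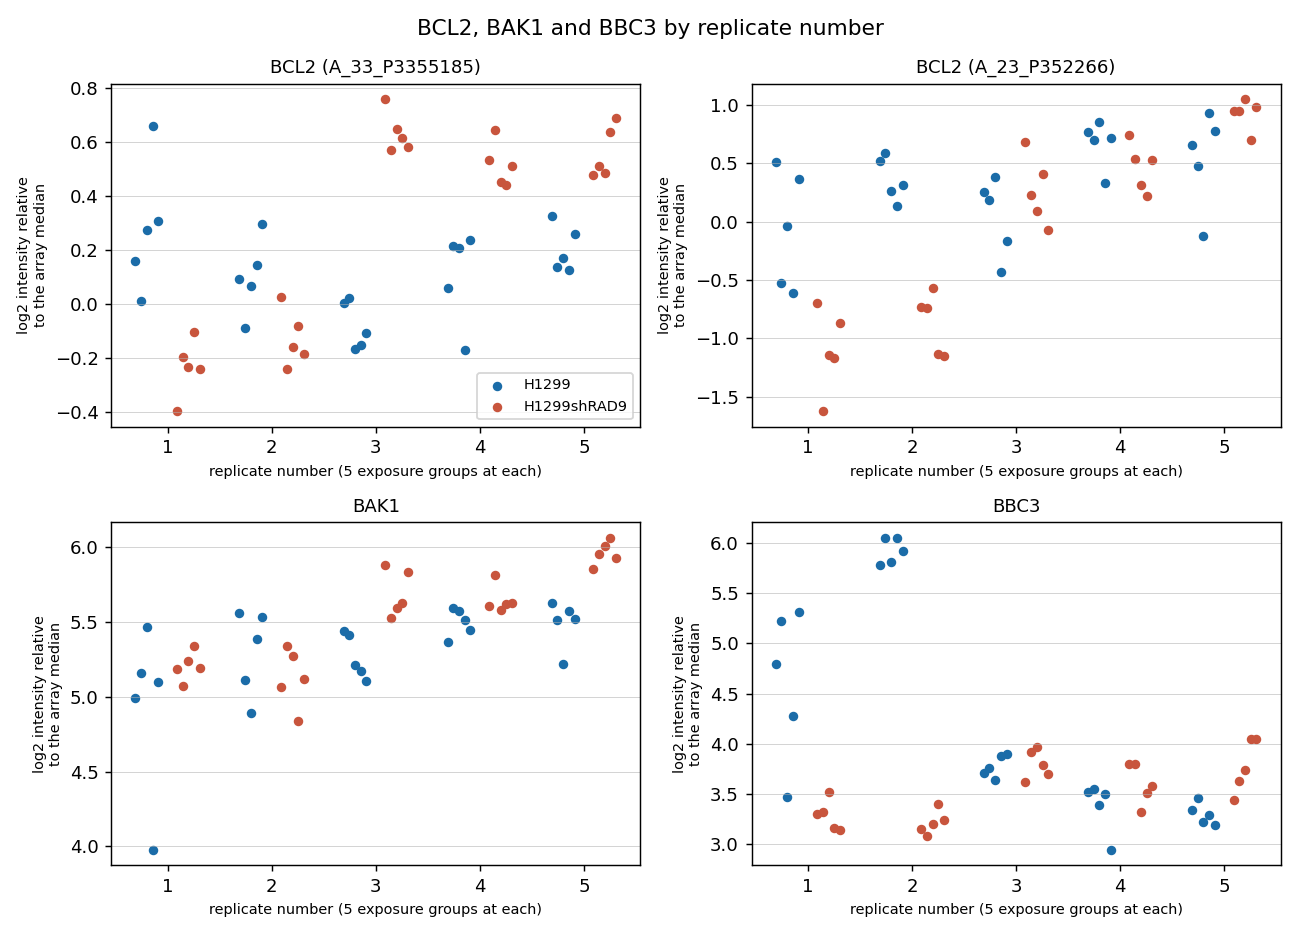
Levels of both BCL2 probes, BAK1 and BBC3 on all 50 arrays, as log2 intensity relative to the array median (y axis) by replicate number (x axis), with 1 point for each of the 5 exposure groups at each number. In H1299shRAD9 (red) both BCL2 probes and BAK1 were lower in replicates 1 and 2 than in replicates 3 to 5, and in H1299 (blue) BBC3 was highest in replicate 2.

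Slide and replicate number went largely together in H1299shRAD9: apart from slide 3, each slide held arrays of this line from replicates 1 and 2 only or from replicates 3 to 5 only. Slide 3 held H1299shRAD9 DBN and BN of replicate 2 beside DBP and BP of replicate 3, scanned together. BCL2 alpha was -1.13 and -1.15 on the replicate 2 arrays and 0.23 and 0.09 on the replicate 3 arrays. BCL2 beta was -0.08 and -0.19 against 0.57 and 0.65, BAK1 4.84 and 5.12 against 5.53 and 5.60, and the bright BAD probe 5.70 and 5.68 against 5.11 and 5.23. On slide 3 each of these probes thus differed in the same direction as over the line, with 2 arrays on each side. These arrays are among those that gave the split, and the probes were picked for it, so this is a description and not a separate test. Replicate number and exposure group also changed together on this slide. The part of slide and scan day in the levels on the other slides was not tested. Which of the RAD9 transfectants gave which replicate is not in the labels, and its part in these levels was not tested.

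In H1299 the member that differed most among replicates was BBC3 (PUMA), with 89.8% of its sum of squares (limma F test, adjusted p = 1.61e-07). Its replicate means were 4.61, 5.92, 3.78, 3.38 and 3.29. Replicate 2 was high in all 5 exposure groups, sham controls included, and replicate 1 ranged from 3.46 in BP to 5.31 in BN. In H1299shRAD9 the BBC3 replicate means stayed between 3.21 and 3.79. TRIB3, a stress-induced pseudokinase gene from the list of regulators, had H1299 replicate means of 7.83, 10.27, 6.42, 6.43 and 6.55, and DDIT3, which encodes the stress factor CHOP, had 3.18, 6.31, 2.57, 2.89 and 2.95. These genes, chosen for display after their values were seen, were thus also highest in replicate 2, and their part in the BBC3 level was not tested. The BAX variant beta probe (59.2%) and PMAIP1 (47.8%) were the other H1299 probes called for the replicate number.

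**Figure D3:**
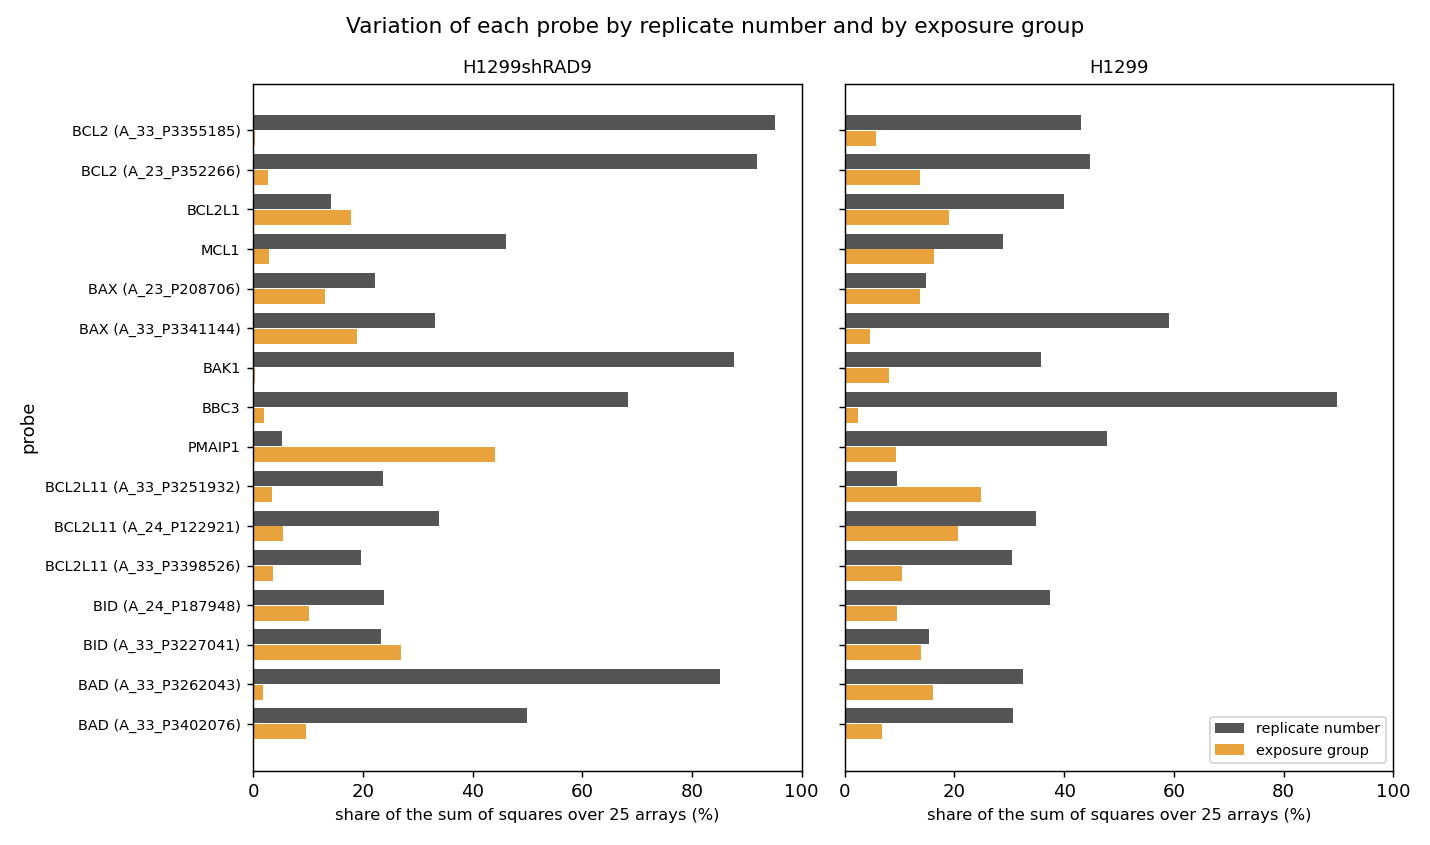
Share of the sum of squares over 25 arrays (x axis, %) that went with replicate number (grey) and with exposure group (orange) for each of the 16 probes (y axis), in H1299shRAD9 and in H1299. The replicate share exceeded the exposure share for 13 of 16 probes in H1299shRAD9 and for 15 of 16 in H1299, and reached 95.2% for BCL2 variant beta. Over all features the median replicate share also exceeded the median exposure share, with 35.1% and 8.62% in H1299shRAD9 and 31.1% and 11.1% in H1299.

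Against that variation, the exposure comparisons asked whether direct or bystander irradiation altered the family at 4 h. Each was paired by replicate number, and all 4 in a line share the same 5 CTL arrays. In H1299shRAD9, 0 of 16 probes were called in DBP (beside 1.3% of all features), 0 in BP (1.62%), 1 in DBN (2.93%, of which 0.901% lower) and 0 in BN (0.0299%). At an unadjusted p below 0.05, limma gave 2, 3, 3 and 3 member probes. In H1299, 0 of 16 were called in DBP (0.0349%), BP (0%), DBN (0.00996%) and BN (0%), with 1, 1, 0 and 1 at an unadjusted p below 0.05.

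The called probe was BCL2 variant alpha, which fell in directly irradiated H1299shRAD9 DBN cells. In replicates 1 to 5 its level was -0.70, -0.73, 0.68, 0.74 and 0.95 in CTL and -1.16, -1.13, 0.41, 0.22 and 0.70 in DBN. Its signal was well above background on 5 of 5 CTL, 4 of 5 DBN and 3 of 5 DBP arrays of this line. The DBN array that was not well above background was replicate 1, so the lowest values are limited by signal. The groups overlapped, but the DBN array was below its CTL partner in 5 of 5 pairs. The paired log2 difference was -0.38 (SE 0.087, 95% CI -0.58 to -0.18, limma adjusted p = 0.0923). The same probe differed from CTL by -0.32 in DBP, -0.24 in BP and -0.30 in BN, none of them called. In H1299 it differed by -0.47 in DBN, where the median feature itself was at -0.10, and was not called. The difference between the lines in this response was 0.09 (95% CI -0.46 to 0.63, limma adjusted p = 0.998). The DBN call was lost when any 1 replicate was left out and without pairing by replicate number (limma adjusted p = 0.991), so it is close to the threshold. The BCL2 variant beta probe, well above background on 50 of 50 arrays, did not show this fall and was not called. Its mean was 0.28 in H1299shRAD9 CTL and 0.30 in H1299shRAD9 DBN.

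PMAIP1 (NOXA), a BH3-only protein that mainly neutralises MCL1, was above CTL in each exposed group of H1299shRAD9 without passing the FDR. Its CTL levels were 4.69, 4.53, 4.01, 4.47 and 4.43, and its DBN levels were 4.95, 4.75, 5.12, 4.74 and 4.93. These groups did not overlap. The paired difference was 0.47 in DBN (95% CI 0.14 to 0.80, limma adjusted p = 0.176), 0.47 in DBP (adjusted p = 0.29), 0.33 in BP (adjusted p = 0.383) and 0.32 in BN (adjusted p = 0.2), with 5 of 5 pairs higher in BP, DBN and BN and 4 of 5 in DBP.

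In H1299 the PMAIP1 difference was -0.06 for DBP, -0.28 for BP, -0.31 for DBN and 0.05 for BN. The test of the difference between the lines gave 0.78 in DBN (95% CI 0.08 to 1.48, limma adjusted p = 0.591), which was not called and stands beside a median of 0.10 over all features. H1299 CTL was itself spread from 3.99 to 5.71.

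BCL2L1 (BCL-xL) was below CTL in the exposed H1299shRAD9 groups, again without a call. Its CTL levels were 3.01, 3.28, 3.01, 3.05 and 3.09, and its BN levels 2.95, 2.66, 2.82, 2.86 and 2.98, with no overlap. The difference was -0.23 in BN (limma adjusted p = 0.367), -0.27 in DBP (adjusted p = 0.229), -0.26 in BP (adjusted p = 0.368) and -0.27 in DBN (adjusted p = 0.538). The paper reports BCL2L1 as down regulated in H1299shRAD9 DBP and not significantly changed in DBN, by its own paired test and feature filter. Here the difference was -0.27 in both groups and neither was called. Why the outcome in DBP differs from the paper's was not tested. MCL1 differed from CTL by between -0.13 and 0.05 in this line, with intervals that lay within -0.51 to 0.41. In H1299, MCL1 differed by -0.35 in DBP (95% CI -0.73 to 0.03) and -0.33 in BP (95% CI -0.75 to 0.09).

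**Figure D4:**
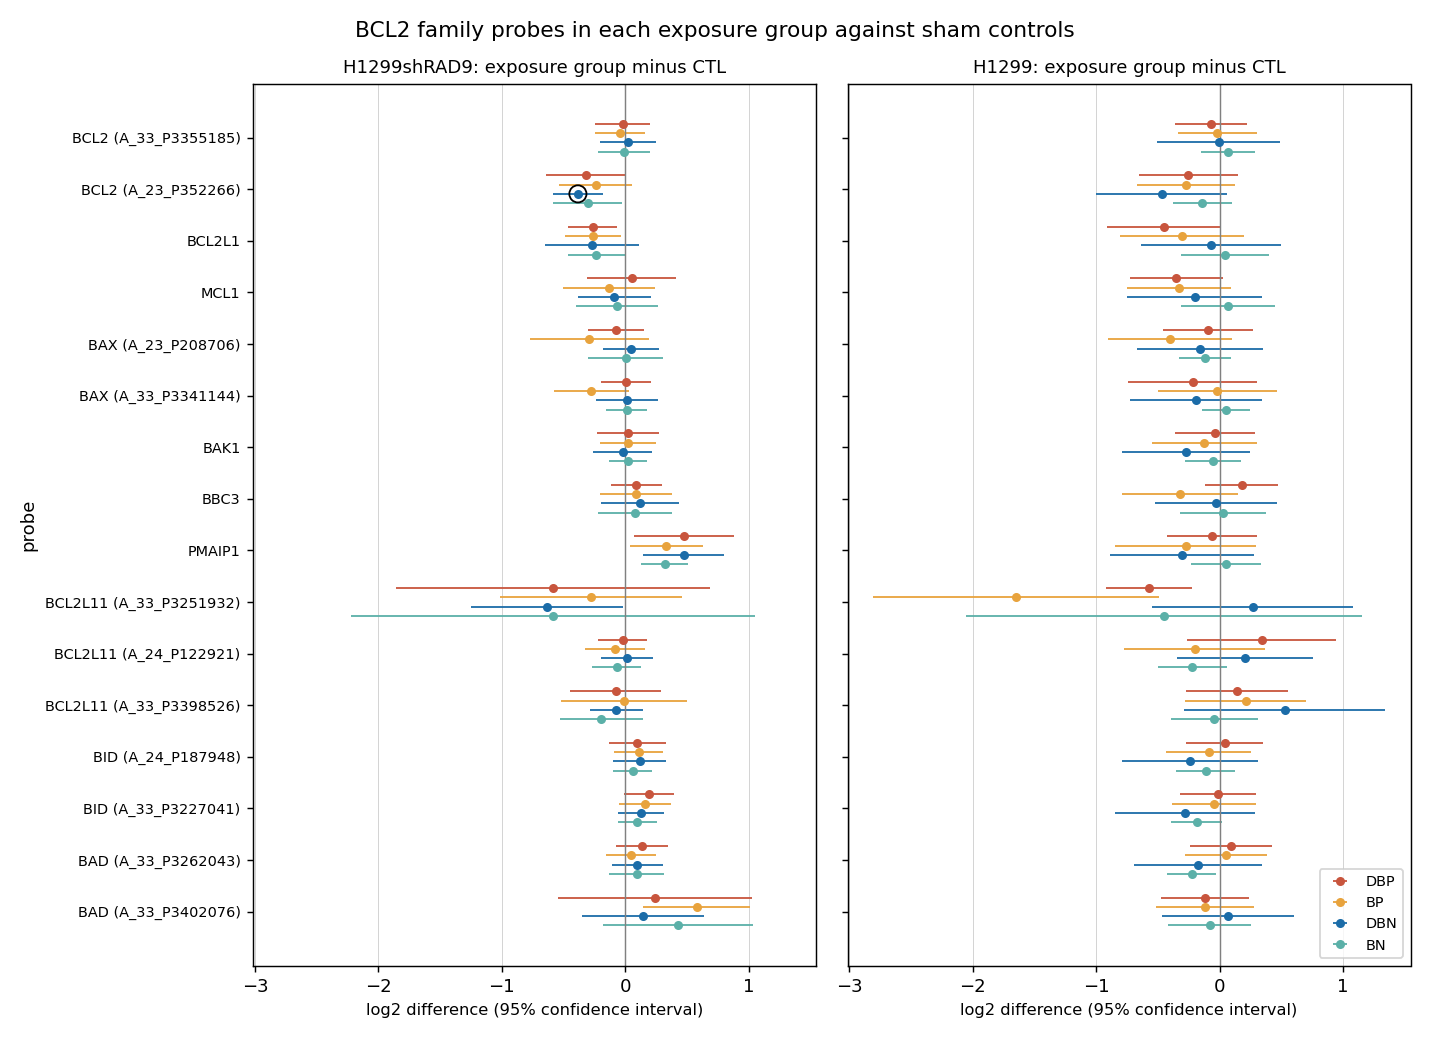
Paired log2 difference from CTL (x axis, with 95% confidence intervals) for each of the 16 probes (y axis) in DBP, BP, DBN and BN, in H1299shRAD9 and in H1299. A ring marks the only called point, BCL2 variant alpha in H1299shRAD9 DBN (-0.38); most other intervals include 0, and the widest belong to the bright BCL2L11 probe.

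None of the 16 probes was called in a test of whether the response differed between the lines, where 0% of all features were called for DBP, BP and BN and 0.0149% for DBN. At an unadjusted p below 0.05, limma gave 0, 1, 1 and 2 member probes for DBP, BP, DBN and BN, and the smallest adjusted p was 0.591. Directly irradiated and bystander cells were also compared within each line, without the CTL arrays, and 0 of 16 probes were called in H1299shRAD9 (beside 0.598% of all features) or in H1299 (0.234%), with 0 and 1 at an unadjusted p below 0.05. The latter was BCL2L11 on A_24_P122921 in H1299 (0.49, 95% CI 0.16 to 0.81, limma adjusted p = 0.591). Its high DBP arrays were replicates 1 and 2, at 2.98 and 3.32.

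BCL2L11 (BIM) is a BH3-only protein that binds all protective members. Its bright probe A_33_P3251932 ranged widely, from 2.46 to 8.18 over the 50 arrays, with an SD of 1.36 where the median feature had 0.346, and only 1.38% of features had an SD above 1. Within groups of 5 the SD was 0.786 to 1.76. In H1299 BP the levels were 3.77, 3.06, 4.75, 4.95 and 4.55, and in H1299 CTL 7.67, 6.06, 6.06, 4.82 and 4.71, so the groups overlapped. The paired difference was -1.65 (95% CI -2.81 to -0.49, limma adjusted p = 0.823), and in DBP it was -0.57 (limma adjusted p = 0.689). Neither was called.

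The other BCL2L11 probes did not share this swing. Over the 50 arrays the bright probe had r = 0.07 and r = 0.44 with them, as a description across arrays that include all groups. It ran closer to other genes, with 44 features of 43 genes at r above 0.9, led by B3GNT7 (r = 0.979), CERS3 (r = 0.977) and FAM178B (r = 0.968). What these features share was not tested.

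**Figure D5:**
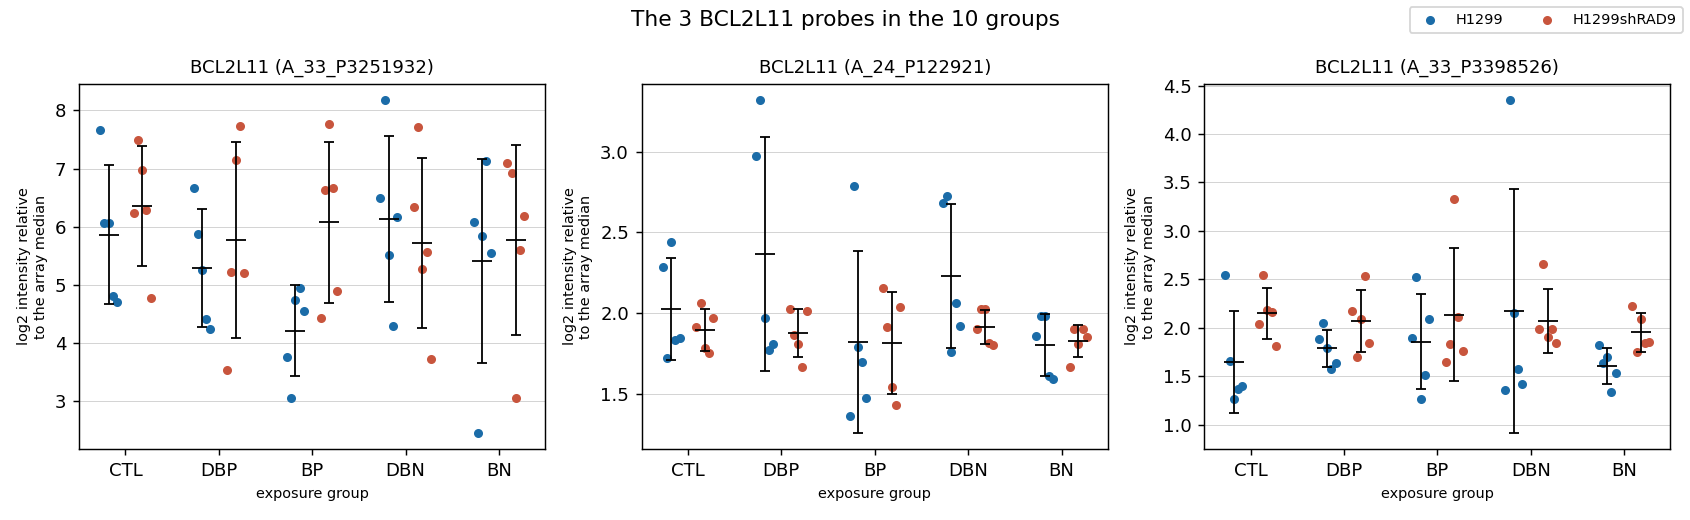
Levels of the 3 BCL2L11 probes in the 10 groups, as log2 intensity relative to the array median (y axis) by exposure group (x axis), with 1 point per array and the mean ± SD as bars (n = 5). The bright probe spread from 2.46 to 8.18, with every group wide, and the other probes reached 3.32 (A_24_P122921, H1299 DBP) and 4.35 (A_33_P3398526, H1299 DBN).

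Among the further genes of apoptosis that were looked at, most calls were between the cell lines. The counts for unirradiated cells stand beside 6.9% of all features called higher and 6.07% called lower, so they give no excess for these lists. Of 11 other BCL2 family genes tested, 1 was higher and 0 lower in H1299shRAD9 CTL (BCL2L15, 0.90, limma adjusted p = 0.0291). Of 21 genes of the mitochondrial machinery, 1 was higher (CYCS, the cytochrome c gene, 0.38, limma adjusted p = 0.0353). Of 12 death receptor genes, 1 was lower (TNFRSF10C, a decoy receptor for TRAIL, -1.38, limma adjusted p = 0.0117). Of 25 regulators, 2 were lower, FOXO1, a forkhead factor known to act on BCL2L11 (-0.97, limma adjusted p = 0.00028), and MOAP1, a partner of BAX (-0.67, limma adjusted p = 0.0254). Medians over these lists were -0.08 for the other BCL2 family, 0.11 for the machinery, -0.11 for the death receptor genes and -0.07 for the regulators, beside 0.06 for all features.

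Over all exposure groups together, the counts were 2 higher and 1 lower for the other BCL2 family, 2 and 0 for the machinery, 1 and 3 for the death receptor genes and 2 and 3 for the regulators, beside 14.5% higher and 8.12% lower among all features. FOXO1 differed by -1.01 and TNFRSF10C by -1.48. After irradiation, the BH3-only gene BMF rose in H1299shRAD9 BP (0.50, limma adjusted p = 0.0562) and DBN (0.57, limma adjusted p = 0.0731), and TRIB3 rose in the same groups (0.54 and 0.49, limma adjusted p = 0.0962 and 0.0996). BIK, another BH3-only gene, was higher in directly irradiated than in bystander H1299shRAD9 cells (0.55, limma adjusted p = 0.00252). Of all features, 1.62% were called in BP, 2.93% in DBN and 0.598% between directly irradiated and bystander cells of this line. No listed gene was called in the remaining comparisons.

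The genes whose levels ran most like those of the members are given for the 3 members whose brightest probe had the largest F over the 10 groups (the dimmer BAX variant beta and BAD probes were not ranked), with Pearson r over 50 arrays of both lines, which share batch and array quality. For BID these were NDUFB2 (r = 0.926), MRPL14 (r = 0.920) and MMS22L (r = 0.917). For BCL2L1 they were PEA15 (r = 0.873), E2F4 (r = 0.872) and PIGU (r = 0.863), and for BAD they included ZNHIT2 (r = 0.918) and FAHD2A (r = 0.906). For BBC3, looked at after its values were seen, TRIB3 (r = 0.949), HERPUD1 (r = 0.930) and RAB39B (r = 0.929) led.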

How the data were processed

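Levels came from the one-colour (Cy3) Agilent 4x44K arrays of 50 RNA samples. The deposited scanner files hold background-subtracted intensity values made by the authors with Agilent Feature Extraction at default settings, on hg19 probe annotation, and the deposited log2 table holds the authors' median-normalized values for a filtered set of features (9 of the 16 member probes, lowest r with the values used here 0.99985), used as an alternative. Here log2 intensity was taken, outlier spots were dropped, spots of a probe were averaged and the array median was subtracted. Features that were outliers or not well above background on 25% or more of the arrays were left out, which left 20078. limma 3.58.1 in R 4.3.3 was used, with calls at p below 0.005 (unirradiated lines, unpaired) or 0.006 (others) and a Benjamini-Hochberg FDR below 10% over all features tested.

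Exposed groups were compared with CTL with the replicate number as a block, after the study's paired test. The mean correlation of deviations between same-numbered arrays was 0.469 to 0.517 in H1299shRAD9 (lowest pair 0.190). In H1299 it was 0.145 to 0.413, with pairs as low as -0.176, so the pairing was not borne out in every pair there. For the lines over all exposures, line with replicate number was a random block (correlation 0.273). Members with several probes were described by the brightest, plus any called probe. The members and lists were chosen with earlier results of these data known. Replicates are separate biological samples, and the number of arrays limits the precision. Scripts were tested on simulated data. With 200 features changed by 0.5 log2 units, 0% were recovered for the unirradiated lines and 37% for H1299shRAD9 DBN against CTL. For H1299 DBN against CTL, 0% were recovered at 0.5 units and 58.5% at 1 unit. The absence of a call is therefore not evidence of no change. Alternatives covered scaling, background, filters, blocks, slide and left-out replicates. Some items that belong to these lists are not reported here.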

Additional observations from a re-analysis of the deposited data

Results flagged for a closer look

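In 12 of 160 sets of 5 arrays (16 probes in 10 groups), 1 array stood apart from the other 4 by more than Dixon's 95% critical value of 0.71. Chance flags about 1 in 20 such sets. In H1299, MCL1 was highest in BN replicate 4 (5.99) and lowest in DBP replicate 1 (4.35), BCL2 variant beta was lowest in BN replicate 3 (-0.108), and BBC3 was highest in BP replicate 2 (5.81). BAK1 (3.98) and the second BID probe (4.65) were both lowest in H1299 DBN replicate 1, the array with the largest share of features above background, and the second BID probe was also lowest in DBP replicate 1 (5.75). The dim BAD probe was lowest in H1299 CTL replicate 1 (-1.13) and highest in H1299 DBN replicate 5 (0.357). BCL2L11 on A_33_P3398526 was highest in H1299 DBN replicate 2 (4.35), H1299shRAD9 BP replicate 3 (3.33) and H1299shRAD9 DBN replicate 2 (2.65).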

How the results depend on the processing

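Of the counts of called member probes, 236 alternative values stayed within 1.5 times the main count and 23 did not. None of the called probe differences changed sign under the alternatives run for it. For the unirradiated lines (3 called), the count was 0 with normexp background correction and with the authors' processed values (which lack the dim BAD probe), 1 with all 10 groups in one fit, and 0 to 3 when 1 replicate was left out. For the lines over all exposures (4 called), it was 2 with the authors' values (BID on A_24_P187948 and BBC3; the table lacks the other BID probe and the dim BAD probe), 8 with the replicate number shared across the lines as a replicate block, 1 with slide as a fixed block, and 3 to 5 without 1 replicate. It stayed 4 without H1299 DBN replicate 1 and was 5 with no replicate block. For H1299shRAD9 DBN (1 called), it was 0 with normexp, with no filter on dim probes, with the positive and significant mark as the filter, with all 10 groups in one fit, with the authors' values (which lack the BCL2 variant alpha probe), with no replicate block, with slide as a fixed block, and whenever 1 replicate was left out (lowest and highest count 0). For H1299 direct against bystander cells (0 called), it was 1 with all 10 groups in one fit, BCL2L11 on A_24_P122921 (adjusted p = 0.0798). The causes were not tested, apart from the probes that the authors' table lacks. For single probes, 82 alternative values kept the call and 42 lost it. The slide block could not be estimated for the unirradiated lines. The blocks for the slide and the fit without H1299 DBN replicate 1 were chosen after seeing the data. The dim BAD probe, above background on 2 of 5 H1299shRAD9 CTL arrays, is limited by signal over background.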
